A study of Sus scrofa with 15 samples.

Results

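The smooth muscle contractile genes ACTA2, ACTG2, TAGLN, CNN1, MYL9, TPM2 and DES were examined in pig backfat, taking each probe set whose platform annotation was exactly 1 of these symbols. All 7 genes were measured, by 9 of the 3255 probe sets tested, and the table named 1260 genes in all. ACTG2 and TPM2 had 2 probe sets each, which are told apart here by the endings of their identifiers, S1_at and A1_at for ACTG2 and S1_a_at and S1_at for TPM2. Samples came from 15 castrated male Iberian pigs, 8 on a high-oleic diet supplemented with oleic acid and 7 on a standard control diet. The diets were fed from 28 kg live weight up to slaughter, in rations of equal energy and protein, and the animals' ages were not used here. Each animal had 1 array of inner-layer adipose tissue. Values are log2 array signals, on which 1 unit is a doubling, and the signal of a probe set cannot be set against that of another.

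Smooth muscle cells of vessel walls contract when myosin pulls on actin filaments, and they carry their own forms of the contractile proteins. In fat they lie around arterioles and larger vessels, and pericytes and myofibroblasts also make ACTA2 and TAGLN. Skeletal muscle also makes TPM2 and DES. In bulk tissue, fewer cells of a type and less RNA per cell cannot be told apart.

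The median signal per array was 6.38 to 6.67, and precision is limited by the number of arrays. Every deposited probe set deviated from its median by 1.5-fold or more in at least 3 animals, though the sources used here state no filter. Control animals 1 and 6 had the highest CNN1 signals of the control group, 10.24 and 9.87, and stood apart from the 13 other animals in most member genes. Results that rest on them are given with and without them. Because a member gene picked them, values without them, correlations included, are descriptions with no test.

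ACTA2, the smooth muscle alpha actin, was 10.92 to 12.85 in high-oleic animals (median 11.95), against 11.73 to 13.80 in control animals (median 11.90). The groups overlapped and their medians were close. Control animals 1 and 6 were at 13.80 and 13.62, and the next highest animal was high-oleic animal 8 at 12.85. ACTG2, the smooth muscle gamma actin, was 4.85 to 8.46 in high-oleic animals on its S1_at probe set (median 7.17), against 6.46 to 12.65 in control animals (median 7.63). Control animal 6 was highest at 12.65 and control animal 1 came next at 11.17, while the lowest value was that of high-oleic animal 2. The range of 7.80 log2 units over the 15 animals was the widest among the members and stood at percentile 99.9 of all tested probe sets.

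TAGLN, which encodes the actin-binding protein transgelin, was 9.63 to 10.76 in high-oleic animals (median 10.03), against 9.43 to 11.58 in control animals (median 10.02). The medians were nearly equal, and control animals 1 and 6 were the top of the range at 11.49 and 11.58. CNN1, the calponin that binds actin and restrains myosin, was 5.38 to 7.56 in high-oleic animals (median 6.04), against 5.20 to 10.24 in control animals (median 6.06). Its range of 5.04 log2 units was a 32.9-fold span, although the group medians were again nearly equal. MYL9, a regulatory light chain of smooth muscle myosin, was 5.63 to 8.00 in high-oleic animals (median 6.74), against 6.54 to 8.74 in control animals (median 7.05). High-oleic animal 1 was lowest, and control animals 1 and 6 were above the rest at 8.74 and 8.58.

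TPM2, the beta tropomyosin that lies along actin filaments, was 8.52 to 9.72 in high-oleic animals on its S1_a_at probe set (median 9.15), against 8.86 to 11.15 in control animals (median 9.25). Control animals 1 and 6, at 11.08 and 11.15, were above all others. DES, which encodes the intermediate filament protein desmin, was 4.70 to 5.03 in high-oleic animals (median 4.93), against 4.11 to 7.44 in control animals (median 5.01). The 8 high-oleic animals had nearly the same DES signal, with an SD of 0.13, while the control group held the lowest animal, number 7, and the highest, numbers 1 and 6 at 7.44 and 6.74.

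**Figure D1:**
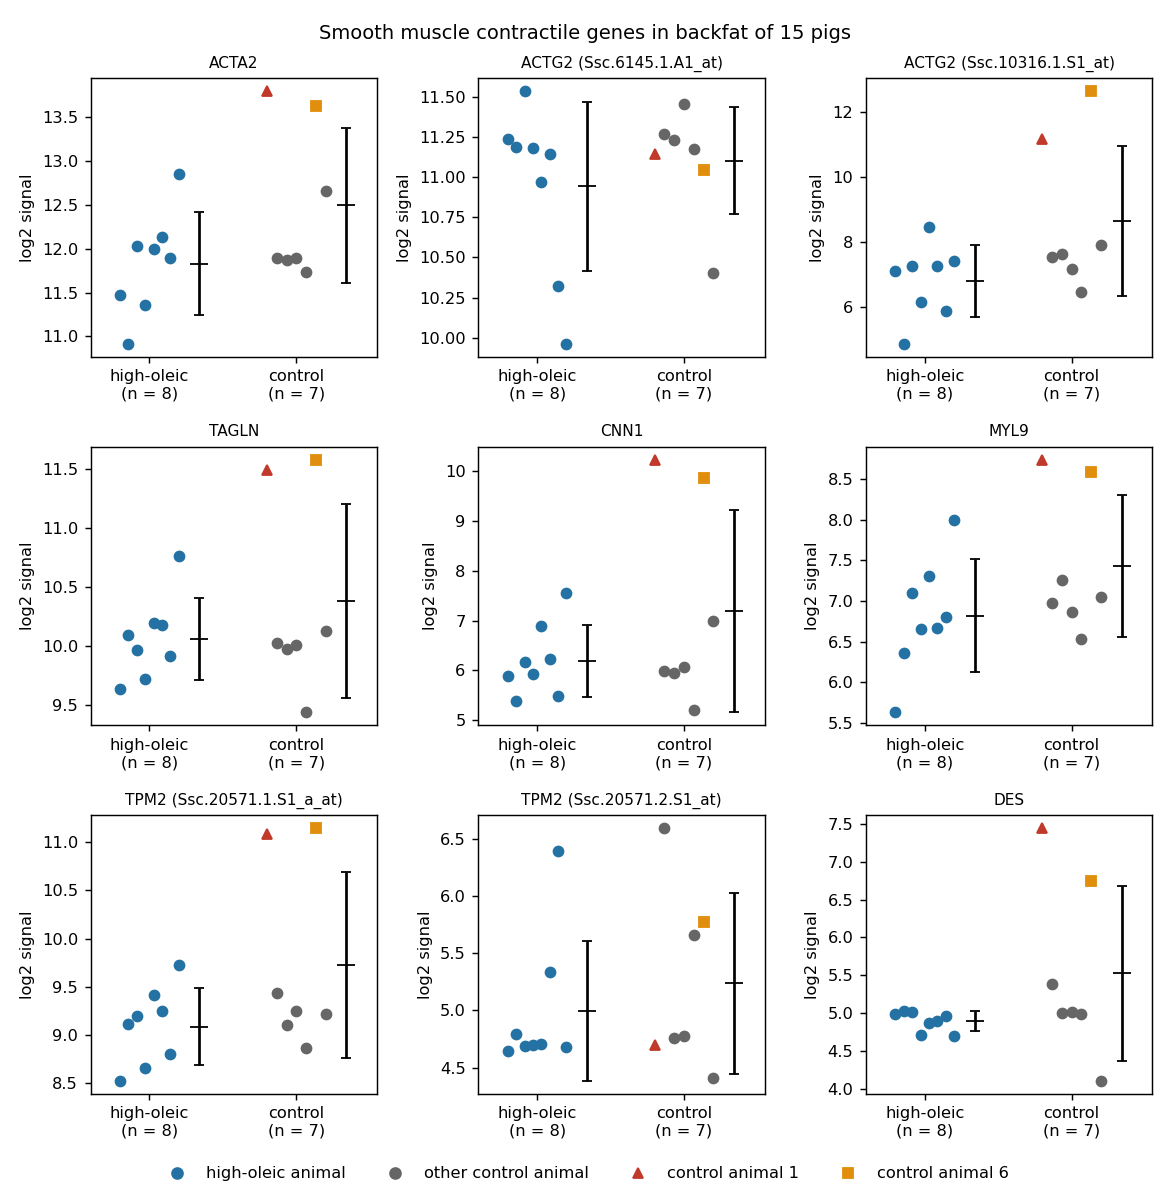
Log2 signal (vertical axes) of the 9 probe sets in each animal, with high-oleic animals left and control animals right in every panel, and the mean and SD beside each group. In 7 panels control animals 1 (triangle) and 6 (square) lie above the 13 others, as for CNN1 at 10.24 and 9.87, and in the panels of ACTG2 A1_at and TPM2 S1_at they do not.

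In 7 of the 9 member probe sets, control animals 1 and 6 were both above all 13 other animals. CNN1 had picked them, and of the 8 remaining probe sets 6 showed it, those of ACTA2, TAGLN, MYL9, DES, ACTG2 S1_at and TPM2 S1_a_at. The same held for 41 of all tested probe sets, or 1.26%. With a gap of 1 log2 unit or more it held for 8 of all tested probe sets, or 0.246%. Among these 8 were 4 members, namely CNN1, which had picked the animals, and ACTG2 S1_at, TPM2 S1_a_at and DES. The gap from the lower of the 2 animals down to the highest other animal was 2.72 for ACTG2 S1_at and 2.31 for CNN1. It was narrowest for MYL9 among the 7, at 0.59.

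The size of the excess differed between genes. Above the median of the 13 other animals, CNN1 stood 4.25 log2 units higher in control animal 1 and 3.88 in control animal 6, or 19.0-fold and 14.7-fold. ACTG2 S1_at stood 3.92 and 5.40 log2 units higher, or 15.1-fold and 42.1-fold. For DES the excess was 5.49-fold and 3.38-fold. The remaining excesses were alike in both animals, 3.73-fold and 3.31-fold for ACTA2, 3.66-fold and 3.29-fold for MYL9, 3.69-fold and 3.87-fold for TPM2 S1_a_at, and 2.80-fold and 2.98-fold for TAGLN. Between the 2 animals, ACTG2 S1_at differed by -1.48 log2 units (animal 1 minus animal 6) and DES by 0.70.

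Among the 13 other animals, high-oleic animal 8 was highest in 5 probe sets, those of ACTA2, TAGLN, CNN1, MYL9 and TPM2 S1_a_at. This was not particular to the members. The same animal was highest of the 13 in matrix and macrophage genes such as FN1, TIMP1, COL5A1 and MRC1, though not in LOX, RGS5 or CLDN5. The share over all probe sets was not counted. The CNN1 signal of high-oleic animal 8 was 7.56, against a median of 5.99 over the 13. The median range over the 9 member probe sets was 2.88 log2 units in the 15 animals, against 2.01 over all tested probe sets. In the 13 animals it was 1.94, against 1.92. These 2 animals were picked by a high CNN1 signal, so setting them aside narrows the ranges of members high in them. No conclusion is drawn from the closeness of these medians. Member ranges over the 13 animals ran from 1.20 for TPM2 S1_a_at to 3.61 for ACTG2 S1_at.

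All 9 member probe sets had a lower mean in high-oleic animals, and 0 passed the test between diets. In limma with Benjamini-Hochberg adjustment over 3255 probe sets, 0 members and 0.0% of all probe sets had an adjusted p under 0.05. A difference below 0 was found in 53.2% of all probe sets. At an unadjusted p under 0.05 there was 1 member, ACTG2 S1_at, against 3.93% of all probe sets in either direction and 1.9% lower in high-oleic animals. The groups did not separate in any member (0 of 9), against 0.0307% of all probe sets. The median difference was -0.63 over the members and -0.03 over all probe sets, and the signs are not independent because all members were measured in the same animals. Skeletal muscle markers also had a lower mean in high-oleic animals in 11 of 11 probe sets (median -0.44) and adipocyte markers a higher one in 4 of 4 (median 0.57), with 0 past the test, and their part in the member differences was not tested.

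ACTG2 S1_at averaged 6.79 ± 1.12 in high-oleic animals and 8.65 ± 2.32 in control animals (SD, n = 8 and 7), a difference of -1.85 with a 95% interval of -3.42 to -0.29. Its unadjusted p was 0.0225 in limma and 0.0591 in a two-sided exact permutation test over 6435 splits, and the adjusted p was 0.999 by both. CNN1 averaged 6.19 ± 0.73 in high-oleic animals and 7.18 ± 2.03 in control animals, a difference of -0.99 with an interval of -2.31 to 0.33. The CNN1 SD was 0.64 in the 5 control animals other than 1 and 6. CNN1 itself picked the animals left out, which narrows this SD, so no conclusion is drawn from it. ACTA2 averaged 11.83 ± 0.59 in high-oleic animals and 12.50 ± 0.88 in control animals, a difference of -0.67 with an interval of -1.40 to 0.07. Differences were -0.64 for TPM2 S1_a_at, -0.63 for DES, -0.61 for MYL9 and -0.32 for TAGLN, each with an interval that included 0 and a limma adjusted p of 0.999.

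Without control animals 1 and 6 the difference was -0.18 for ACTA2, -0.55 for ACTG2 S1_at and -0.12 for MYL9. It was -0.09 for TPM2 S1_a_at and -0.0015 for DES, and it turned to 0.14 for TAGLN and 0.15 for CNN1. Each of these 7 probe sets lost 70.5% or more of its difference. ACTG2 A1_at and TPM2 S1_at, in which the 2 animals did not stand apart, stayed at -0.16 and -0.24. With live weight also in the fit, the differences without the 2 animals were -1.02 for ACTG2 S1_at, -0.30 for CNN1 and -0.09 for TAGLN, so the signs of CNN1 and TAGLN depended on that term. Without live weight, 7 of 9 members were below 0, against 49.6% of all probe sets, and their median was -0.12, against 0.0026.

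**Figure D2:**
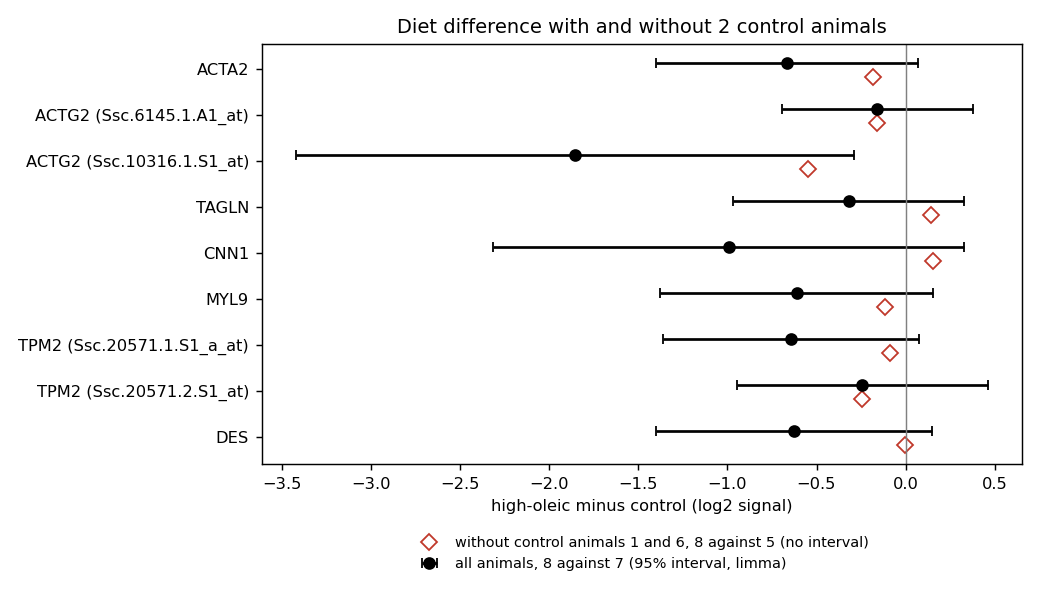
High-oleic minus control difference in log2 signal for the 9 probe sets, over all 15 animals (filled circles with limma 95% intervals) and without control animals 1 and 6 (open diamonds, no interval). Over all animals 8 intervals include 0 and that of ACTG2 S1_at runs from -3.42 to -0.29, and without the 2 animals its difference is -0.55.

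The 2 probe sets annotated to ACTG2 did not follow each other. On A1_at, ACTG2 was 9.96 to 11.54 in high-oleic animals (median 11.16), against 10.40 to 11.45 in control animals (median 11.17). Control animals 1 and 6 were inside the group at 11.14 and 11.04. The range of A1_at was 1.57 log2 units, at percentile 19.2 of all probe sets, against 7.80 for S1_at. Among the 13 other animals the pair gave r = -0.062 and rho = -0.115, and r = -0.278 once the 2 animals most distant from the median were dropped. The diet difference of S1_at minus that of A1_at was -1.69, which had a two-sided exact permutation p of 0.107 (adjusted p = 0.214 over the 2 genes), and it was -0.38 without control animals 1 and 6. In the same 13 animals A1_at gave r = -0.617 with ACTA2, -0.568 with TAGLN and -0.543 with CNN1. The rho values were weaker, -0.445, -0.401 and -0.258, and r without the 2 farthest animals was -0.448, -0.258 and -0.567. A1_at was lowest, at 9.96, in high-oleic animal 8. Probe sequences were not used here, and which transcripts each probe set reads was not tested.

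For TPM2, too, the probe sets parted. On S1_at, TPM2 was 4.64 to 6.40 in high-oleic animals (median 4.70), against 4.41 to 6.59 in control animals (median 4.78). The highest were control animal 2 at 6.59, high-oleic animal 7 at 6.40, control animal 6 at 5.77 and control animal 5 at 5.66, and the rest were between 4.41 and 5.34. Control animal 1, among the highest on S1_a_at, was at 4.70. Among the 13 other animals the TPM2 pair gave r = -0.035 and rho = 0.071, with r = -0.325 without the 2 farthest animals. Whether the lower S1_at signals are above background is not known. The diet differences of S1_a_at and S1_at differed by -0.40 (two-sided exact permutation p = 0.462, adjusted p = 0.462 over the 2 genes).

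TPM2 S1_at followed markers of skeletal muscle. Their score is the mean over 10 measured genes of 18 listed of the log2 signal minus the gene's mean over the 15 animals. It was highest in control animal 2 at 3.33, high-oleic animal 7 at 2.78 and control animal 5 at 2.16. TPM2 S1_at and the score gave r = 0.889 (permutation p = 2e-05, adjusted p = 0.0009 over 45 relations) and rho = 0.80 (permutation p = 0.00056, adjusted p = 0.0252). The 45 relations are those of members to marker scores and to a score of spiked control transcripts. Dropping the 2 animals most distant from the median score gave r = 0.737, and r was 0.865 within high-oleic animals and 0.901 within control animals. The other TPM2 probe set gave r = -0.121 (permutation p = 0.683, adjusted p = 0.855) and rho = 0.157 (permutation p = 0.575, adjusted p = 0.798) with the same score. No other relation of the 45 had an adjusted p under 0.05, and the part of skeletal muscle in the TPM2 signal was not tested further.

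**Figure D3:**
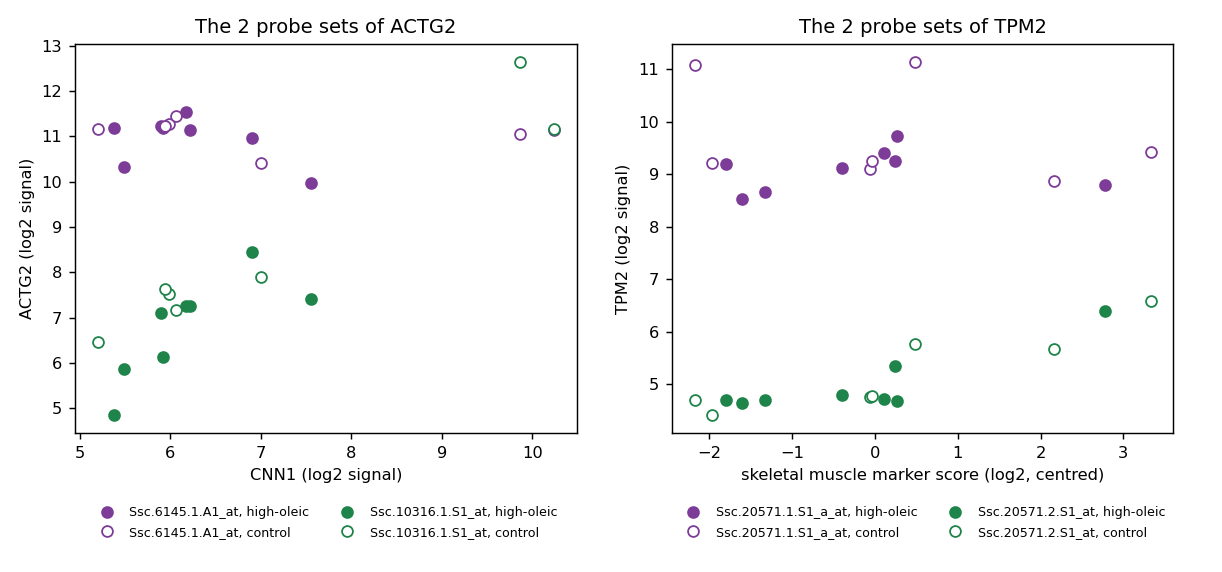
The 2 probe sets of ACTG2 against CNN1 (left, log2 signals) and of TPM2 against the skeletal muscle marker score (right), 1 point per animal. ACTG2 A1_at lies between 9.96 and 11.54 and is lowest in high-oleic animal 8, and TPM2 S1_at is highest in control animal 2 and high-oleic animal 7, which have the highest skeletal muscle scores.

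Most of these members were also positively related away from control animals 1 and 6. Over 15 animals 21 of 36 pairs of member probe sets correlated by Pearson's r at a permutation adjusted p under 0.05, all positively. These were the pairs among the 7 probe sets that set the 2 animals apart. By Spearman's rho the pairs of DES among them gave 0.046 to 0.314, none at an adjusted p under 0.05. As those 2 animals form a cluster of their own, correlations were taken within the 13 others, with no test. All 15 pairs of ACTA2, ACTG2 S1_at, TAGLN, CNN1, MYL9 and TPM2 S1_a_at had an r above 0 there, between 0.320 and 0.845 with a median of 0.690. The closest pair was TAGLN and TPM2 S1_a_at, with r = 0.845 and rho = 0.857. Its r was 0.883 without the 2 farthest animals and 0.942 within high-oleic animals. ACTA2 and CNN1 gave r = 0.798 and rho = 0.846, with r = 0.635 without the 2 farthest animals.

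A technical value moved with these genes in the same 13 animals, the signal of Bacillus subtilis transcripts spiked into the RNA. Its r was 0.683 with ACTA2, 0.715 with TAGLN, 0.625 with CNN1, 0.640 with MYL9, 0.607 with TPM2 S1_a_at and 0.238 with ACTG2 S1_at. With ACTG2 A1_at it was -0.747, and high-oleic animal 8 had the highest spiked score, 1.38. Within high-oleic animals the r of that score with ACTA2, TAGLN, CNN1, MYL9 and TPM2 S1_a_at was between 0.733 and 0.899. Within control animals, 1 and 6 included, it was between -0.479 and -0.273, and over 15 animals between -0.006 and 0.169. The part of the spiked score in the correlations among the 13 animals was not tested. In control animals 1 and 6 the spiked score was -0.72 and 0.0015, against -0.66 to 1.38 in the others.

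DES ranged over 1.28 log2 units among the 13 animals, against 1.33 for TAGLN and 1.20 for TPM2 S1_a_at. The r of DES with those 6 probe sets was between -0.553 and -0.042, at a signal of 4.70 to 5.39 in all but control animal 7, at 4.11. With ACTG2 A1_at it gave r = 0.567 and rho = 0.808 in the same animals, with no test. Whether this signal is above background is not known, so these values say little about DES. After control animals 1 and 6 the highest DES signal was 5.39 in control animal 2, which had the highest skeletal muscle score. Control animal 1 had the highest DES signal and the lowest skeletal muscle score, -2.17. Over 15 animals DES and that score gave r = -0.067 (permutation p = 0.826, adjusted p = 0.915) and rho = -0.007 (permutation p = 0.984, adjusted p = 0.984). Among the 13 their r was 0.556, with no test.

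Of 30 further smooth muscle genes in a list, 8 were measured, by 9 probe sets. Of these 9, 7 had a lower and 2 a higher mean in high-oleic animals, against 53.2% lower over all probe sets. In this list 0 passed the test, and the median difference was -0.44. In 4 of the 9, control animals 1 and 6 were above all others, against 1.26% of all tested probe sets. As CNN1 picked these animals, genes that move with CNN1 are favoured, and the count is a description. KCNMB1, a beta subunit of the calcium-activated potassium channel of smooth muscle, was 5.991 and 5.996 in them, against 1.83 to 4.03 in the 13 others. FLNA, which cross-links actin filaments, was 9.50 and 9.67, against 7.43 to 9.30. CSRP1, a LIM domain protein, was 8.52 and 8.997, against 7.24 to 8.28. PLN, which encodes the calcium pump inhibitor phospholamban, was 8.57 and 8.16 on its S2_at probe set, against 5.68 to 7.92. On its S1_at probe set PLN was 9.81 and 8.90, and control animal 7 lay between them at 8.997.

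The other listed genes showed no such gap. PDLIM7, a PDZ and LIM domain protein, was 7.69 and 8.03 in control animals 1 and 6, and high-oleic animal 8 lay between them at 7.90. PDLIM3, a related protein, had the lowest unadjusted p of the list, 0.0346 in limma (adjusted p = 0.999), and was highest in control animal 2 at 6.24. Differences between diets were 0.23 for the small heat shock protein gene HSPB6 and 0.39 for VCL, which encodes the adhesion protein vinculin. In HSPB6 control animals 1 and 6 were at 9.09 and 9.85, against 9.17 to 10.48 in the others, and in VCL at 6.45 and 7.09, against 5.62 to 7.47. Without these 2 animals the diet difference was 0.25 for KCNMB1, 0.14 for PDLIM7, 0.13 for CSRP1, 0.15 for HSPB6 and 0.52 for VCL. It was then -0.01 for FLNA, -0.81 for PDLIM3, and -0.15 and -0.16 for PLN on S1_at and S2_at, with no test.

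**Figure D4:**
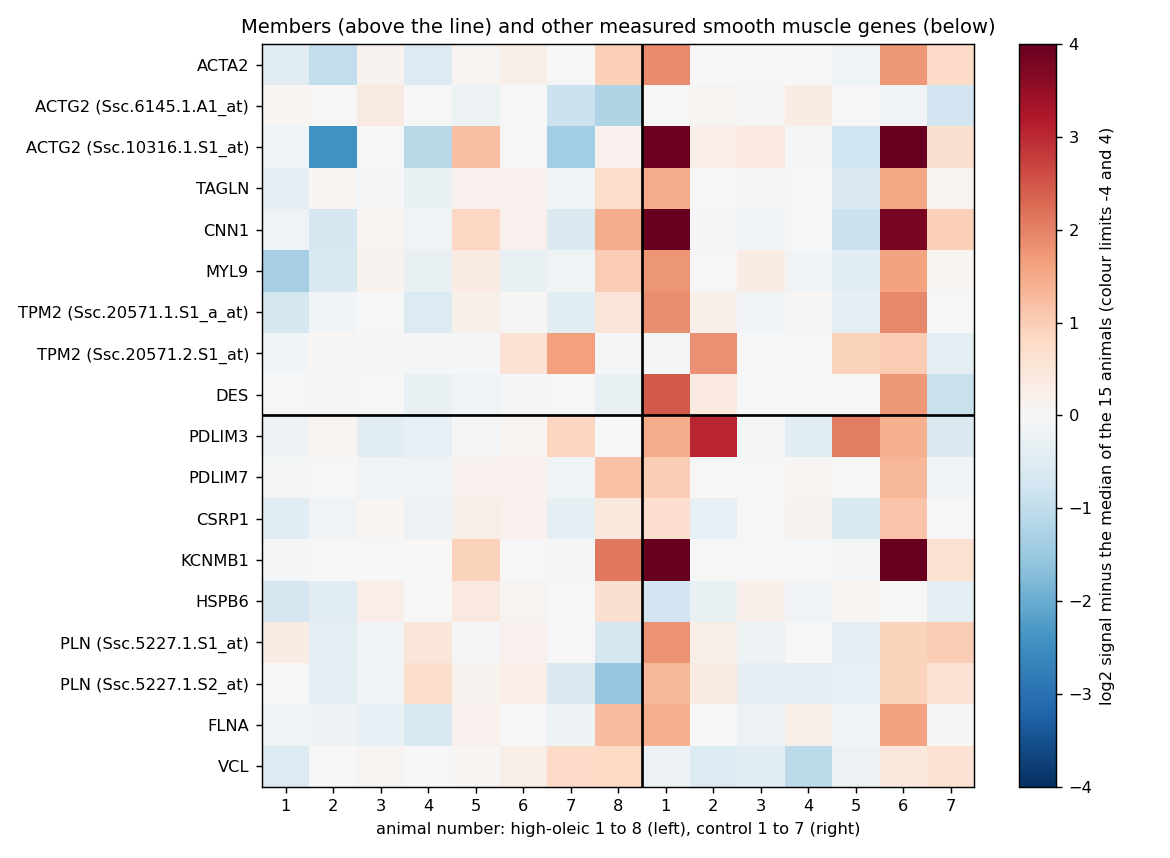
Log2 signal minus the median over the 15 animals (colour) for the 9 member probe sets above the line and 9 probe sets of other smooth muscle genes below it, with high-oleic animals left of the vertical line and control animals right. Control animals 1 and 6 stand out in ACTG2 S1_at, CNN1 and KCNMB1, and control animal 2 in TPM2 S1_at and PDLIM3.

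Markers of other cells did not set control animals 1 and 6 apart from the 13 others as the members did. The pericyte score, from 4 of 8 genes, was 0.30 and 0.22 in them, against -0.62 to 0.39 in the others. RGS5, a pericyte regulator of G protein signalling, was 11.30 and 10.21, and control animal 7 was at 11.34. The endothelial score, from 4 of 10 genes, was -0.11 and 0.0062, against -0.45 to 0.39. The fibroblast and matrix score, from 10 of 17 genes, was 0.29 and 0.23, against -0.56 to 0.80, and the macrophage score, from 3 of 8 genes, was 0.015 and 0.35, against -1.11 to 1.05. Each of these 4 lists had 0 probe sets with both animals above all others. These scores lay within the range of the 13 animals, while the member score was 1.75 and 1.56, against -0.62 to 0.26. The member score includes CNN1, which picked the 2 animals, so part of its gap was fixed by that choice. A member score without CNN1 was not computed.

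In muscle and fat markers the 2 animals differed from each other. Control animal 1 had the lowest skeletal muscle score at -2.17 and the lowest adipocyte score at -0.83, from 3 of 12 genes, and control animal 6 had 0.49 and 0.33. LEP, which encodes the fat hormone leptin, was 10.29 and 11.62 in them on its S3_at probe set, against 10.34 to 12.52 in the others. On its S2_at probe set LEP was 8.61 and 10.55, against 9.21 to 11.30. The adipocyte genes ADIPOQ, FABP4 and PLIN1 were not analysed here.

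The genes most like the members were ranked by the r of each named probe set with the mean of the 7 member genes over 15 animals, as a description with no test. That mean used the probe set of highest mean signal per gene, which for ACTG2 was A1_at. KCNMB1 came first with r = 0.961, before HEY2, a transcriptional repressor of the Notch pathway, with 0.917, and RAMP1, a partner of the calcitonin receptor-like receptor, with 0.910. FLNA had 0.894, CSRP1 0.882 and PDLIM7 0.849. The other 6 were GATA6, HSPB8, CCDC84, ITIH4, IGFBP2 and CAP2, between 0.697 and 0.833. In 11 of these 12 genes control animals 1 and 6 were above the 13 others, against 1.26% of all tested probe sets. The member mean is itself highest in these 2 animals, so the ranking favours such genes and the count supports nothing further.

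Among those 13 animals the likeness was kept by some genes alone. It was 0.837 for CSRP1, 0.735 for KCNMB1, 0.723 for FLNA, 0.679 for PDLIM7 and 0.646 for RAMP1. It was 0.164 for HEY2, -0.336 for GATA6 and -0.432 for CCDC84, and HEY2 was 6.14 and 5.83 in control animals 1 and 6, against 2.51 to 3.82 in the others. Of the 12 genes, 2 were also among the 12 closest in the 13 animals. The 3 least like the members were MBNL3, a splicing regulator, with -0.573, the phosphodiesterase gene PDE6C with -0.518 and TMEM158 with -0.498, and of these MBNL3 alone stayed below 0 among the 13, at -0.502.

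**Figure D5:**
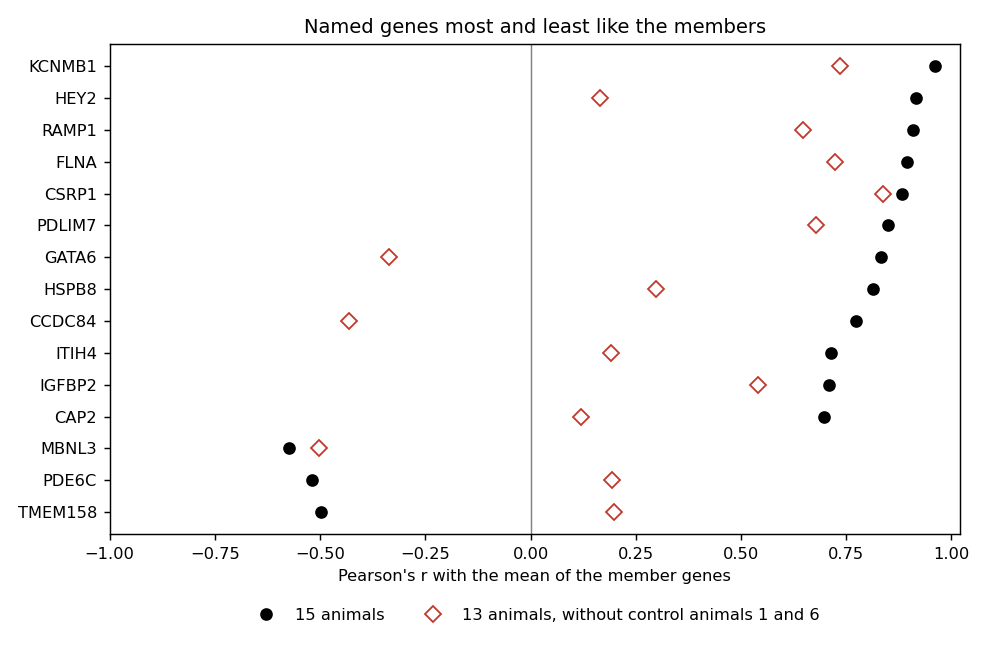
Pearson's r of the 12 named genes most like and the 3 least like the mean of the member genes, over 15 animals (filled) and over the 13 animals without control animals 1 and 6 (open diamonds). CSRP1 stays at 0.837 and KCNMB1 at 0.735 among the 13, while CCDC84 turns to -0.432.

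Live weight was 104.5 to 116 kg in high-oleic animals, against 112 to 133 kg in control animals. With live weight in the limma fit the diet difference was -2.53 for ACTG2 S1_at, -1.71 for CNN1 and -0.64 for TAGLN, and 0 of the 9 passed the test. Leaving out control animal 5, which weighed 133 kg, the fit gave -1.96, -1.31 and -0.43. At fixed diet the slope of CNN1 per 10 kg was -0.89 (SE 0.59) in all animals and 0.02 without control animal 5, and no member slope passed the test. Control animals 1 and 6 weighed 112.5 and 118 kg.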

How the data were processed

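Backfat RNA of 15 pigs was hybridised to Affymetrix porcine arrays, 1 per animal, with diet and weight taken from GEO's labels. The deposited table holds the authors' log2 signals per probe set. GCOS and GCRMA are named per the submitters' processing notes, without versions or roles, and the log2 scale was read from the values. Of 3272 probe sets, 17 controls were left out, and of 3255 tested 1455 had 1 symbol, 27 several and 1773 none.

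Differences, high-oleic minus control, were fitted with limma 3.58.1 in R 4.3.3, with two-sided p-values, Benjamini-Hochberg adjusted over all probe sets (threshold 0.05). The fit was tested on simulated data. Correlations used 100000 permutations, and figures matplotlib 3.10.9. Genes other than members were named as measured genes of written lists, as markers, or as the 12 most and 3 least like the members. Members and lists were chosen with earlier results of these data known. No label ties animals of equal number, and their deviations correlated between -0.161 and 0.296, over 0.1 in 4 of 7 pairs. Alternatives included other scalings, filters, covariates, variance models and tests, a block, and leaving out animals.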

Additional observations from a re-analysis of the deposited data

Results flagged for a closer look

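A check of each member probe set within each diet, 18 in all, looked for a single animal lying far outside its group, which chance gives in about 1 in 20. It found 2. TPM2 S1_at was 6.396 in high-oleic animal 7, while the next highest of its group was 5.34 and the group's other animals had a median of 4.70. ACTG2 A1_at was 10.40 in control animal 7, while the next lowest of its group was 11.04 and the group's other animals had a median of 11.20.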

How the results depend on the processing

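No member probe set passed the test in any tested alternative, also not at an adjusted p under 0.10. Over 231 member differences in 26 alternatives, 6 turned sign. With live weight in the fit TPM2 S1_at was 0.11, and 0.28 without control animal 5 and 0.096 without control animals 1 and 6. Without these 2 animals TAGLN was 0.14 and CNN1 0.15, and DES was 0.011 with live weight added. The median range was then 1.94, and 10 pairs of member probe sets correlated by Pearson's r in place of 21. That count is no test because CNN1 picked the animals left out. Leaving out 1 animal at a time gave a median member difference of -0.76 to -0.39, a median range of 2.49 to 2.88, 9 of 9 members lower and 0 past the threshold. ACTG2 S1_at was -1.19 without control animal 6. CNN1 was -0.48 and DES -0.31 without control animal 1, and TAGLN -0.12 without control animal 6. TPM2 S1_at was -0.02 without control animal 2, and ACTG2 A1_at -0.02 without high-oleic animal 8. With the animal number as a replicate block, which drops high-oleic animal 8 for want of a partner, ACTG2 S1_at was -1.94 and CNN1 -1.19, 9 members were lower and 0 passed. Of 7 control animals, 2 correlated best with the high-oleic animal of their own number. The fits combining live weight with left-out animals were chosen after seeing the data. Signal over background was not used here, so dim and absent transcripts cannot be told apart.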
